A study of Mus musculus with 34 samples.

Results

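The replication-dependent histone genes are the clustered genes that carry the names Hist1h, Hist2h, Hist3h and Hist4h in the mouse annotation. Every gene name with one of these 4 beginnings was taken, and those with a count above 10 in at least 2 of the 34 libraries were kept. This gave 65 genes of 70 with such a name, among 55341 gene names in all. They comprised 6 linker histone H1 genes, 18 H2A, 17 H2B, 11 H3 and 13 H4 genes, of which 3 are annotated as pseudogenes. The 5 genes not kept were Hist2h2aa1 and Hist2h3c1, which had a count of 0 throughout, Hist3h2ba, and Hist1h2ba and Hist1h2aa, which are known as testis forms. Total RNA was sequenced from a mouse mammary adenocarcinoma line, derived from 3617 cells, that lacks its own glucocorticoid receptor (GR, encoded by Nr3c1) and stably expresses a GFP-tagged mouse GR in its place. All groups share that knockout, the tag, 10% charcoal- and dextran-treated serum and 5 µg/ml tetracycline. Set 1 held lines with wild-type receptor (WT), Y551A and Y551A-Dim, each with 3 libraries after 2 h of 100 nM dexamethasone (Dex, a synthetic glucocorticoid) and 3 after its ethanol vehicle (EtOH). Set 2 held a WT line with 2 libraries per treatment and the lines D647V and D647V-tetra with 3 each, under the same treatments. Dim and tetra are not explained in the labels. The study concerns the ligand-binding domain of GR, and the comparisons here ask how histone transcripts stood in each line at baseline and after Dex. A single line was given per receptor form, so a substitution and other differences between lines cannot be told apart. The labels do not say whether libraries of a group came from separate cultures. If they did not, p-values measure only the spread between these samples.

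Replication-dependent histone genes supply the core histones H2A, H2B, H3 and H4 and the linker histone H1 that package newly made DNA, and their transcripts accumulate mainly in S phase. They lack introns for the most part, and their mRNAs end in a conserved stem-loop instead of a poly(A) tail. The stem-loop-binding protein Slbp holds this element and, with the U7 small nuclear RNA, directs 3′ processing, while Npat activates transcription of the clusters. When DNA synthesis stops, the mRNAs are degraded within a short time. Libraries made from total RNA, as here, can hold such transcripts, which libraries selected for poly(A) largely lose.

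The stem-loop is shown because it sets these genes apart from nearly all others in the same files. A 16-base stem-loop was searched in the GENCODE vM21 transcripts of the 62 protein-coding members. It was found in 43 of the 49 members whose transcript is annotated more than 20 bases past the stop codon, against 4 of 21668 other protein-coding genes (0.0185%). The other 13 members are annotated no further than 20 bases past the stop, so the element could not be seen there. There were 8 distinct forms. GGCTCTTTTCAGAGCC was the commonest with 23 members, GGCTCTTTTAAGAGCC was held by 6, and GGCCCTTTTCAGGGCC by 7, all of them H4 genes. Below, the stem-loop is in capitals with 5 bases of transcript on each side, 5′ to 3′, written as DNA.
Hist1h1c: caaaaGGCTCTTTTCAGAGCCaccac
Hist2h2ac: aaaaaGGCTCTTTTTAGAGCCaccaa
Hist3h2a: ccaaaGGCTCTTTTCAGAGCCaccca
Hist1h2bk: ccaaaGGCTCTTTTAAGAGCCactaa
Hist1h4d: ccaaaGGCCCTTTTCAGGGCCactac
Hist4h4: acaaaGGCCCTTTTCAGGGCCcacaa
Hist1h4j: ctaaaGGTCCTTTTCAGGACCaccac
These 7 genes carry the results described further on. Hist2h2be, whose annotated transcript runs 2192 bases past the coding sequence, holds no match to the element. The same holds for Hist2h3b, Hist1h2bq, Hist1h2br, Hist1h2bc and Hist1h1a, which are also annotated more than 20 bases past the stop. However, Hist2h3b and Hist1h1a are annotated for only 37 and 48 bases past it. Where found, the element began 21 to 58 bases past the coding sequence. It could therefore lie beyond the annotated end of Hist2h3b and Hist1h1a.

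The 250 bases before the start site were available from the RefSeq promoter table (GRCm38.p6, the same assembly as mm10) for 57 of the 65 members, all 65 of which matched a RefSeq gene. CCAAT, read on both strands, was in 47 of the 57 windows (82.5%) against 33.8% of 32793 other promoters. All H1, H2A and H2B windows held it, as did 8 of 9 H3 windows, but 3 of 12 H4 windows (25%). TATAAA was in 45.6% against 12.3%. The octamer ATTTGCAT, a known element of H2B promoters, was in 11 windows (19.3%, against 1.57%), 6 of H2A and 5 of H2B genes. The H1 box AAACACA was in 5 of 6 H1 windows (83.3%, against 6.24%). ACANNNTGT, the inverted pair of short sites that GR is known to bind as a dimer, was in 1 of 57 windows (1.75%), against 5.84% of other promoters. These matches describe letters in a window and not binding. The promoters below belong to 2 genes of head-to-head pairs whose partners had different levels, and to the H4 gene used as the main example. Capitals mark TATAAA, the octamer in its reverse form ATGCAAAT, and CCAAT, which reads ATTGG in reverse. The windows lie at chr3:96220881-96221130 (minus strand), chr11:58954435-58954684 (plus strand) and chr13:23581318-23581567 (plus strand).
Hist2h2ac: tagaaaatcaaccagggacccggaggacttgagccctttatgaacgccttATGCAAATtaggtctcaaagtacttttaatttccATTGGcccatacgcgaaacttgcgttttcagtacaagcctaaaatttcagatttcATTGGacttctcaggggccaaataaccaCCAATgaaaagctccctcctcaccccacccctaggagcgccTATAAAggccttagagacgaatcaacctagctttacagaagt
Hist3h2a: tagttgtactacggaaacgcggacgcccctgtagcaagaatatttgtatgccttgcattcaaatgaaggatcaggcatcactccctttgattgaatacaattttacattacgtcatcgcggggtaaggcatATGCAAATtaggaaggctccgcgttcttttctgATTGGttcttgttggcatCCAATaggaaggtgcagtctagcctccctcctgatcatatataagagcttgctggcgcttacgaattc
Hist1h4d: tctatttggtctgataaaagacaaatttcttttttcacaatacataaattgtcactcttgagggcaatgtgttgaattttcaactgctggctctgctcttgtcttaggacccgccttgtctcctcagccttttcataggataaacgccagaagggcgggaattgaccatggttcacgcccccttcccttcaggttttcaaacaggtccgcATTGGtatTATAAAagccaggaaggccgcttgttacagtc

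The kept genes lie in few blocks of mm10. On chromosome 13, 19 genes lie between 21715763 and 21837530, 5 between 22035164 and 22043676, and 29 between 23531050 and 23764406. A further 8 lie on chromosome 3 between 96219865 and 96270132, and the pair Hist3h2bb-ps and Hist3h2a lies on chromosome 11 between 58954048 and 58956830. Hist4h4 stands alone on chromosome 6 (136801553 to 136804415, minus strand), and the pseudogene Hist1h2al alone on chromosome 13 near 51202727. Of the genes described most below, Hist1h4d is at 23581598 to 23582735, Hist1h1c at 23738808 to 23740367, Hist1h4j at 21735064 to 21735837 and Hist1h2bk at 22035870 to 22036345, all on the plus strand of chromosome 13. The copies resemble each other closely. In 24 members more than 50% of all 100-base windows of their transcripts also occurred in another gene, and 6 members shared none, Hist1h4d and Hist2h2be among them. Reads that match several places were left uncounted, so the level of a member with many shared windows is uncertain. The exons of 5 kept members overlap another gene on the same strand.

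Levels are given in CPM, counts scaled to a common library size, and per length as CPM divided by exon length in kilobases. In WT cells of set 1 in EtOH, the highest mean levels were those of the H2B gene Hist2h2bb at 1048 ± 26.7 CPM per kilobase (SD, n = 3), the H4 gene Hist1h4k at 984.6 ± 48 and the linker histone gene Hist1h1b at 971.6 ± 37.5. Neighbours in this order did not differ beyond their spread, since the libraries of Hist1h4k (953.7 to 1040) overlapped those of Hist2h2bb (1021 to 1075) and of Hist1h1b (939 to 1013). Hist1h4d, which shares no window with another gene, stood at 788.7 ± 10.5. The order rests on annotated exon length, 381 bp in Hist2h2bb and 1138 bp in Hist1h4d. Without division by length, Hist1h4d had 897.5 CPM and Hist2h2bb 399.5. Of their windows, Hist1h4k shares 64.3% and Hist2h2bb 45.4% with other genes. At the other end of the order per kilobase were Hist2h2be at 0.712 ± 0.0951 and Hist1h1t, the linker histone known from testis, at 0.291 ± 0.0916. In WT cells of set 2 the same 3 genes led, now with Hist1h1b first at 573.8 ± 27.4 (SD, n = 2), Hist1h4k at 542.8 ± 66.4 and Hist2h2bb at 541.0 ± 9.84, which lie within their spread.

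Libraries held 44998213 to 70124595 counted reads in set 1 and 60277930 to 79776573 in set 2. The receptor transcript Nr3c1 ranged from 234.4 to 380 CPM. Dex raised Sgk1, a classic GR target, in every line, with log2 fold changes of 2.42, 1.90 and 0.64 in WT, Y551A and Y551A-Dim and of 2.65, 1.76 and 0.84 in WT, D647V and D647V-tetra. The epithelial markers Epcam, Cldn3 and Cldn7 were at 0 in all 34 libraries and the summed level of 10 epithelial markers was 0.541 to 1.43 CPM. Markers of fibroblasts or mesenchymal cells were mixed. Vim stood at 3965 to 5348 CPM and Col1a2 at 1568 to 2709. Pdgfra stood at 22.5 to 39.4 CPM, Col3a1 at 6.79 to 14.1 and Col1a1 at 0.92 to 2.44. Dcn, Lum and Thy1 were at 0.145 CPM or below. Immune markers summed to 2.13 to 9.65 CPM and endothelial markers to 2.21 to 9.38 CPM. The highest immune sum was in Y551A-Dim in Dex (2.72 to 9.65), and all other groups stayed at or below 4.72. The endothelial sum in EtOH differed by line, at 7.49 to 7.95 CPM in WT, 3.09 to 3.8 in Y551A and 2.53 to 2.92 in Y551A-Dim of set 1, and 6.21 to 6.77 in WT, 2.21 to 2.84 in D647V and 2.22 to 2.46 in D647V-tetra of set 2. Its member Cdh5, the cadherin of endothelial junctions, was lower than in WT in each of these 4 lines (log2 fold changes -1.24, -1.58, -1.46 and -1.54, called by edgeR), and its part in the histone values was not tested. Replicate 3 of Y551A-Dim in Dex held more histone reads than the other 2 of its group, and results that rest on it are given with and without it.

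The 65 genes together took 0.681% to 1.25% of the counted reads of a library. In EtOH the share was 1.25%, 1.19% and 1.19% in the WT libraries of set 1, 0.724%, 0.686% and 0.716% in Y551A, and 1.06%, 1.1% and 1.03% in Y551A-Dim. The 3 lines did not overlap, with Y551A lowest. The mean share was 1.21% ± 0.0357 in WT (SD, n = 3), 0.708% ± 0.0203 in Y551A and 1.06% ± 0.0366 in Y551A-Dim, which puts Y551A at 0.586 and Y551A-Dim at 0.88 of WT. In set 2 the share in EtOH was 0.828% and 0.746% in WT, 0.806%, 0.9% and 0.913% in D647V, and 1.02%, 0.952% and 1.04% in D647V-tetra. D647V overlapped WT and D647V-tetra lay above both. After Dex, D647V-tetra stood at 0.806%, 0.814% and 0.778%, below its EtOH libraries and inside the range of WT. This is 0.796 of its EtOH mean. Elsewhere the Dex share was 0.918 of the EtOH mean in WT, 0.979 in Y551A and 0.891 in Y551A-Dim of set 1. For set 2 it was 0.981 in WT and 0.964 in D647V. All WT libraries of set 1 were lower in Dex (1.08% to 1.16%) than in EtOH (1.19% to 1.25%). Y551A-Dim in Dex held 0.88%, 0.899% and 1.07%, the last inside its EtOH range. WT of set 2 had a mean share of 0.787% ± 0.058 (SD, n = 2) against 1.21% in WT of set 1, but set, culture and library kit cannot be told apart, since the labels give both the same line name, describe 2 kits and do not assign them. In bulk RNA, fewer cells in S phase and less histone mRNA per S phase cell cannot be told apart either.

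**Figure D1:**
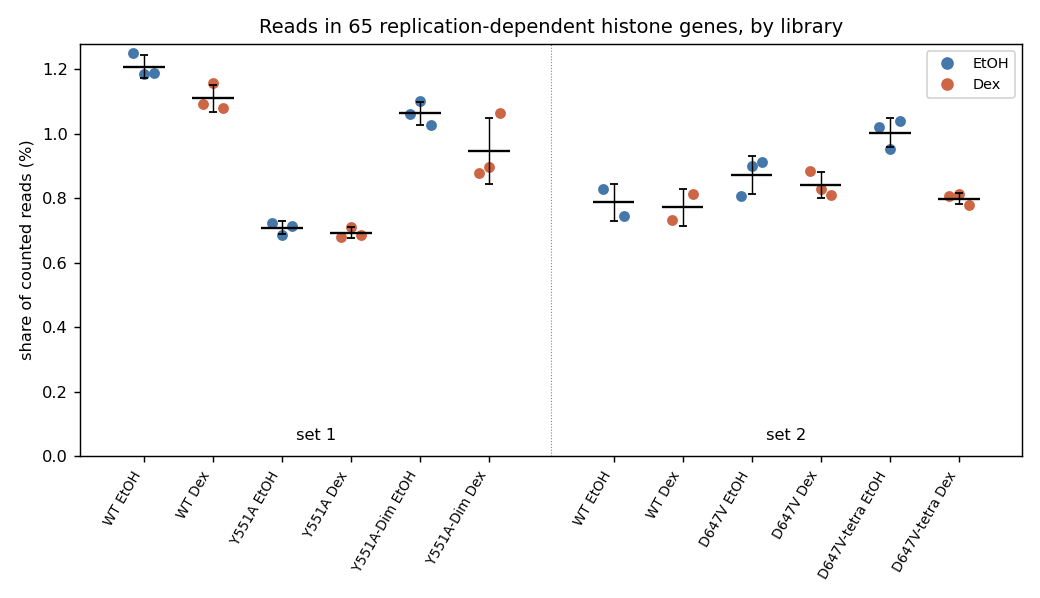
Share of all counted reads (percent, axis from 0) that fell on the 65 histone genes, for the 12 groups of line and treatment, with set 1 on the left and set 2 on the right. Points are libraries, lines are group means and bars are the SD: Y551A sits lowest in set 1 in EtOH and Dex (0.681% to 0.724%), and D647V-tetra in EtOH (0.952% to 1.04%) sits highest in set 2.

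The share was divided among the classes within narrow ranges in each set. H4 genes took 33.2% to 35.3% of the histone reads in set 1 and 28.1% to 32.1% in set 2. H2B genes took 25% to 26.5% and 22.1% to 25.1%, and H1 genes 19.9% to 21.9% and 19.9% to 22.7%. H3 genes took 10.7% to 11.9% in set 1 and 12.4% to 14.6% in set 2, and H2A genes 7.19% to 8.41% and 10.5% to 13.1%. The ranges of H2A, H3 and H4 did not overlap between sets.

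Y551A cells had less of nearly every histone transcript than WT cells in the absence of hormone. Of the 65 genes, 59 were lower and 2 higher in Y551A at an adjusted p below 0.05 (edgeR's quasi-likelihood test, Benjamini-Hochberg adjusted over all genes). Over all 16140 genes tested, 23.5% were lower and 18.9% higher. The median log2 fold change of the 65 was -0.776, a fold of 0.584, against -0.001 for all genes tested. In 61 genes every Y551A library lay below every WT library and in 2 every one lay above, patterns seen in 29.0% and 25.1% of all genes. The H4 gene Hist1h4d had 911.3, 890.4 and 890.9 CPM in WT and 519.7, 498.0 and 515.1 in Y551A. The highest Y551A library is thus far below the lowest WT library. Hist4h4, the isolated H4 gene on chromosome 6, had 631.4, 590.7 and 600.7 CPM in WT and 317.0, 295.9 and 312.8 in Y551A. Its log2 fold change was -0.98 ± 0.0554 (SE, n = 3 per group, edgeR adjusted p = 1.51e-13), the lowest of all called members.

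Every class took part. The 13 H4 genes were all lower, with a median of -0.83, as were the 11 H3 genes (-0.82), 16 of 17 H2B genes (-0.78), 14 of 18 H2A genes (-0.75) and 5 of 6 H1 genes (-0.76). Among linker histone genes, Hist1h1a fell by 0.93 on the log2 scale, Hist1h1b by 0.82, Hist1h1d by 0.79 and Hist1h1e by 0.72. Hist1h1c had 505.8, 487.7 and 471.9 CPM in WT and 326.4, 317.9 and 311.0 in Y551A, again without overlap. Hist1h1t stayed at or below 0.461 CPM in all libraries and was not called, nor were the H2A genes Hist1h2aj, Hist1h2ao and Hist1h2ap, all of low level. By position, the lower genes were 16 of 19 and 5 of 5 in the first 2 blocks of chromosome 13, 28 of 29 in the third, 7 of 8 on chromosome 3, and Hist3h2bb-ps, Hist4h4 and the isolated pseudogene Hist1h2al. Members with over 50% of windows shared had a median of -0.778 (21 of 24 lower) and the others one of -0.773 (38 of 41 lower). Short genes of 300 to 800 bp that are no members had a median of 0.052 (n = 1086).

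The 2 members that were higher in Y551A each belong to a head-to-head pair whose other gene was lower. Hist3h2a, an H2A gene on chromosome 11 (58954685 to 58956830), had 4.15, 3.87 and 5.31 CPM in WT and 6.57, 6.07 and 6.13 in Y551A, and rose by 0.50 ± 0.1185 (log2, SE, n = 3 per group, edgeR adjusted p = 0.00117). Its partner Hist3h2bb-ps, whose start lies 173 bases away on the other strand, had 19.5, 21.7 and 19.3 CPM in WT and 11.4, 10.7 and 11.4 in Y551A, a log2 fold change of -0.86. Hist2h2be, an H2B gene on chromosome 3 (96221119 to 96223738), had 1.68, 2.15 and 1.77 CPM in WT and 2.91, 2.37 and 2.46 in Y551A. Its change was 0.46 ± 0.1675 (log2, SE, edgeR adjusted p = 0.0268). The call of Hist2h2be was lost with a length offset (0.402, edgeR adjusted p = 0.0595) and with the offset and a replicate block (edgeR adjusted p = 0.0697). Its partner Hist2h2ac, 239 bases away and with the promoter printed above, had 105.5, 95.7 and 102.6 CPM in WT and 64.5, 58.7 and 60.8 in Y551A (log2 fold change -0.72). In both pairs the groups do not overlap for either partner. The annotated exons of Hist3h2a overlap Trim17 on the same strand. Of 13 such pairs with starts at most 500 bases apart, the other 11 had both members below 0, for example Hist1h2ak and Hist1h2bn (-0.74 and -0.72) and Hist1h2ah and Hist1h2bk (-0.98 and -0.78).

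The genes that act with histone mRNA moved alongside. All 34 genes of a list of G1/S and S phase genes were lower in Y551A, with a median of -0.623, among them Pcna, the sliding clamp of DNA polymerase (-0.56 ± 0.0436), cyclin Ccne2 (-0.78 ± 0.0539) and cyclin Ccne1 (-0.63 ± 0.0531). Slbp had 88.5, 87.1 and 85.9 CPM in WT and 56.3, 58.3 and 57.5 in Y551A, with a change of -0.60 ± 0.047 (log2, SE, edgeR adjusted p = 6.19e-11). Npat changed by -0.23 ± 0.0501 and Casp8ap2, a partner of Npat at histone loci, by -0.53 ± 0.0411. Of 18 genes for histone transcription, 3′ processing and decay, 16 were lower (median -0.261), and of 18 histone chaperone and chromatin assembly genes, 17 were (median -0.399), such as Nasp at -0.72 and Chaf1b at -0.64. Of 24 G2 and mitosis genes, 20 were lower and 1 higher, with a smaller median of -0.268, and the proliferation marker Mki67 was not called (-0.06 ± 0.0545). The replication-independent variants were mixed: of 10, 6 were lower, such as H2afx (-0.60) and H2afz (-0.46), and H3f3a was higher (0.21). Of 22 structural non-coding RNAs, such as Rmrp and Rny1, which like histone mRNA carry no poly(A) tail, 9 were lower and 2 higher (median -0.191). Cell cycle genes and structural RNAs thus differed between these lines beside the histone genes, and their part in the result was not tested.

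**Figure D2:**
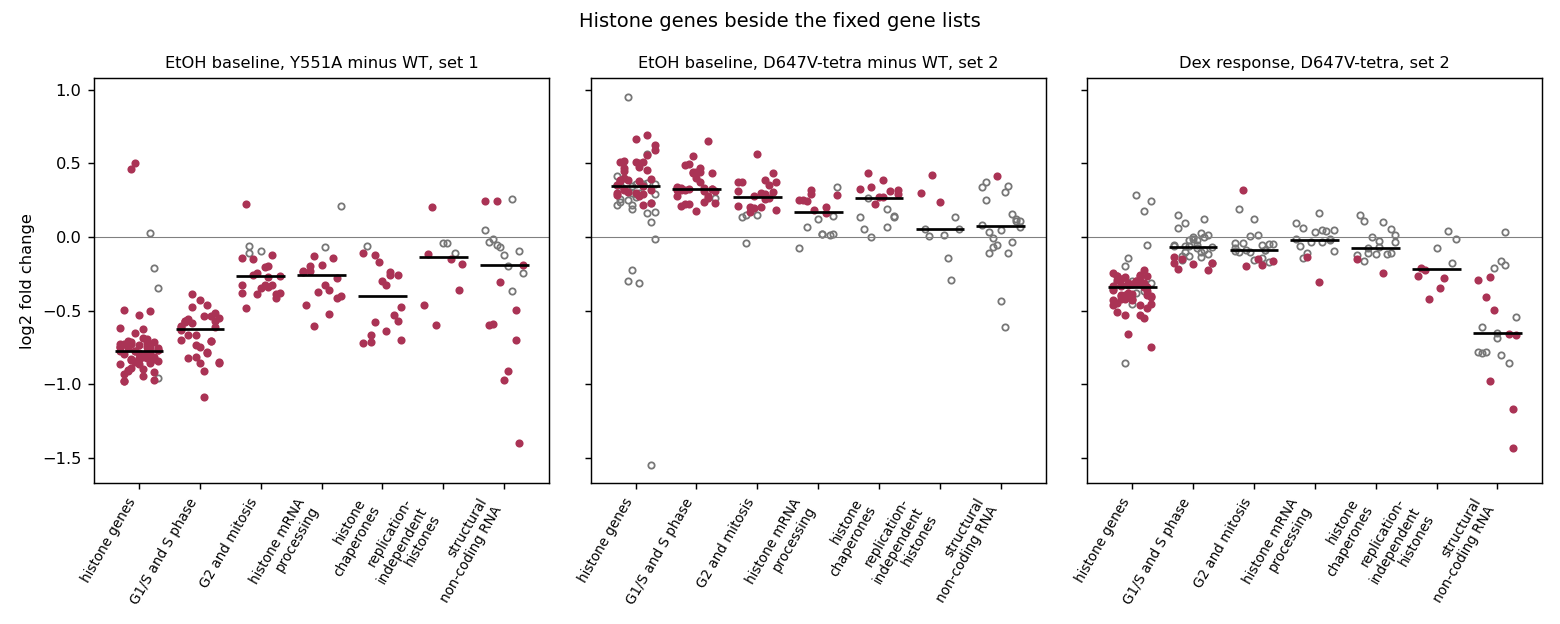
Log2 fold changes (vertical axis) of the histone genes and of related gene lists in 3 comparisons: EtOH baseline of Y551A against WT in set 1, EtOH baseline of D647V-tetra against WT in set 2, and the Dex response of D647V-tetra. Each point is a gene, filled red where called at an adjusted p below 0.05 and open grey otherwise, and bars are medians: in Y551A the histone genes (-0.776) and S phase genes (-0.623) are both low, while in the Dex response of D647V-tetra the histone median is -0.34 and the S phase median -0.072.

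Y551A-Dim stood between WT and Y551A. Against WT, 32 of the 65 genes were lower and 1 was higher (edgeR's quasi-likelihood test), where 13.3% and 10.0% of all genes tested were, and the median was -0.181 (a fold of 0.882). Leaving out replicate 3 of Y551A-Dim in EtOH gave 19 calls. The lower genes were 9 of 11 H3, 8 of 13 H4, 5 of 6 H1, 6 of 18 H2A and 4 of 17 H2B genes. Hist1h4d had 776.8, 774.9 and 737.3 CPM in Y551A-Dim, below all WT and above all Y551A libraries. The H3 genes Hist2h3c2 (-0.54 ± 0.1172) and Hist2h3b (-0.45 ± 0.0597) were the lowest of the called members. Hist2h3b had 151.9, 142.3 and 152.1 CPM in WT and 112.0, 112.0 and 102.5 in Y551A-Dim. The called higher gene was the H2B gene Hist1h2br at 0.56 ± 0.1285, which had 8.9, 6.76 and 7.74 CPM in WT and 10.0 to 12.5 in Y551A-Dim, with 86.4% of its windows shared with other H2B genes. Of the 34 S phase genes, 10 were lower and 1 higher (median -0.094), and of the 22 structural non-coding RNAs 5 were lower and 3 higher (median -0.239). Their part in the result was not tested.

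Set directly against Y551A, Y551A-Dim had more of 56 of the 65 genes and less of none (edgeR's quasi-likelihood test, 14.8% and 14.2% of all genes tested), with 61 members at an unadjusted p below 0.05 and 57 calls by DESeq2, of which 1 was lower. The median was 0.595, a fold of 1.51. The highest called members were Hist1h2bq at 1.31 ± 0.2016, from a low level, Hist1h2br at 1.09 ± 0.1336, Hist3h2bb-ps at 0.79 and Hist4h4 at 0.74. Hist4h4 had 503.2, 537.2 and 509.9 CPM in Y551A-Dim against 317.0 or less in Y551A. All 34 S phase genes and all 24 G2 and mitosis genes were higher as well. Y551A-Dim and WT were each compared with the same Y551A libraries, so these comparisons share samples.

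In set 2 the histone genes were higher in D647V-tetra than in WT. In EtOH 33 of the 65 were higher and 0 lower (edgeR's quasi-likelihood test, 49 at an unadjusted p below 0.05, 40 calls by DESeq2), where 9.35% and 9.34% of all genes tested were. The median was 0.346, a fold of 1.271, against -0.007 for all genes tested. The calls depended on the control libraries: without replicate 2 of WT in EtOH, 6 were past the threshold and the median was 0.248, and without the low-count filter 55 were called. H2B genes led with 14 of 17, followed by H4 (9 of 13), H1 (4 of 6), H3 (4 of 11) and H2A (2 of 18), although the class medians lay close together between 0.30 and 0.35. Hist1h1b had 440.8 and 412.0 CPM in WT, 485.7, 553.5 and 531.8 in D647V, and 636.1, 594.5 and 648.3 in D647V-tetra. The 3 lines do not overlap. Its change in D647V-tetra was 0.56 ± 0.0804 (log2, SE, n = 3 and 2, edgeR adjusted p = 0.000183). Hist4h4 had 313.0 and 267.3 CPM in WT and 419.8, 383.2 and 434.7 in D647V-tetra (0.51, edgeR adjusted p = 0.00513). Hist3h2bb-ps, which was among the lower genes of Y551A, was the highest called member here at 0.69.

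D647V differed less from WT. Of the 65 genes, 5 were higher and 1 lower (4.58% and 2.78% of all genes tested, edgeR's quasi-likelihood test), with a median of 0.117. The median was 0.227 with a length offset and 0.02 to 0.254 when single libraries were left out. The higher ones were Hist2h3c2 (0.70), Hist3h2bb-ps (0.37), Hist1h2bm (0.31), Hist1h1b (0.30) and Hist2h2bb (0.27). The lower one was Hist2h2be, at 3.36 and 3.25 CPM in WT and 2.07, 2.08 and 2.3 in D647V (-0.62, edgeR adjusted p = 0.0451). Its call was lost without the low-count filter (edgeR adjusted p = 0.0644), with a length offset (-0.57, edgeR adjusted p = 0.0794) and with the offset and a replicate block (edgeR adjusted p = 0.0675). Without replicate 2 of WT in EtOH the count was 0. It was 1 without replicate 1 of WT, replicate 2 or replicate 3 of D647V in EtOH, and 3 without replicate 3 of D647V in Dex. Against D647V, D647V-tetra had more of 3 genes, Hist1h3d (0.48), Hist1h1a (0.27) and Hist1h1b (0.26), and less of none (0.53% and 4.0% of all genes tested, edgeR's quasi-likelihood test), with 31 members at an unadjusted p below 0.05 and 11 calls by DESeq2. That count became 0 without replicate 1 or 2 of D647V or replicate 1 or 3 of D647V-tetra in EtOH, 1 without replicate 3 of either line in Dex, and 5 without replicate 1 of D647V in Dex or replicate 2 of D647V-tetra in EtOH. In both lines S phase genes were higher than in WT, 25 of 34 in D647V (median 0.238) and 33 of 34 in D647V-tetra (0.326), including Slbp (0.32 ± 0.0512) and Pcna (0.32 ± 0.0499) in D647V-tetra. Of the 65 histone genes, 57 were above 0 in D647V against WT, and 15 had an unadjusted p below 0.05 by edgeR's quasi-likelihood test. The structural non-coding RNAs Rmrp, Rn7s2, Rny1 and others, which like histone mRNA carry no poly(A) tail, had a median of -0.456 in D647V and 0.074 in D647V-tetra against WT. Their part in the histone values was not tested.

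After 2 h of Dex few histone genes of set 1 were called, although most had log2 fold changes below 0 in WT and Y551A-Dim. In WT, 3 of 65 were lower and 0 higher, against 1.4% and 2.0% of all genes tested (edgeR's quasi-likelihood test, 37 at an unadjusted p below 0.05, 5 calls by DESeq2). The median was -0.147, with 61 genes below 0, against -0.013 for all genes tested. In 36 members all Dex libraries lay below all EtOH libraries, and in 0 above, where 11.3% and 8.33% of all genes did so. The called genes were Hist3h2bb-ps (-0.33 ± 0.0846), Hist1h1c (-0.20 ± 0.0559) and the H4 gene Hist1h4j (-0.20 ± 0.0562, edgeR adjusted p = 0.0407). Hist1h1c had 505.8, 487.7 and 471.9 CPM in EtOH and 411.9, 467.4 and 392.3 in Dex, and Hist1h4j had 291.8, 269.3 and 269.4 in EtOH and 240.2, 244.0 and 237.3 in Dex. Neither overlapped between treatments. The count depended on the settings: 32 without the filter on low counts, 18 without replicate 3 of Y551A-Dim in Dex, 5 without its replicate 1, 1 without replicate 1 of WT in Dex or replicate 1 or 2 of WT in EtOH, and 0 without replicate 3 of WT in Dex.

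In Y551A, 0 of 65 genes passed edgeR's quasi-likelihood test after Dex (1.43% of all genes tested were higher and 0.415% lower). The median was -0.02, with 1 member at an unadjusted p below 0.05 and 0 calls by DESeq2. In Y551A-Dim, Hist1h4d was lower (-0.20 ± 0.0492, edgeR adjusted p = 0.0425), 1 of 65 against 0.192% of all genes tested, and 0 were higher against 0.898%. The median was -0.185, with 60 genes below 0, 46 at an unadjusted p below 0.05 and 14 calls by DESeq2. All 34 S phase genes were below 0 as well (median -0.124, 0 called), as were all 24 G2 and mitosis genes (median -0.13, 1 called). In the Dex response of WT in set 1 these medians were -0.028 and -0.047. The part of these lists in the histone values was not tested. Hist1h4d had 776.8, 774.9 and 737.3 CPM in EtOH and 620.2, 622.2 and 749.4 in Dex, so replicate 3 in Dex overlapped the EtOH libraries. That library also held a histone share of 1.07% against 0.88% and 0.899% in the other 2, and its S phase genes were 0.179 above the mean of the set (median, log2) against -0.049 and 0.068. Without it 49 genes were called and the median was -0.284. With it, the count was 38 without the filter on low counts, 2 or 3 without replicate 1 or 3 of WT in EtOH or replicate 1 of Y551A in Dex, and 0 without any replicate of Y551A in EtOH, replicate 1 or 2 of Y551A-Dim in Dex, or replicate 1 or 3 of Y551A-Dim in EtOH. Compared directly, the Dex responses of Y551A and WT differed in 0 members (0.062% of all genes tested were higher and 0.118% lower, median difference 0.114, 9 at an unadjusted p below 0.05, 0 by DESeq2). Those of Y551A-Dim and WT differed in 0 as well (0.589% higher and 0.886% lower, median -0.033, 3 at an unadjusted p below 0.05, 0 by DESeq2), and in 1 without replicate 3 of Y551A-Dim in Dex. These are tests with edgeR's quasi-likelihood fit.

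**Figure D3:**
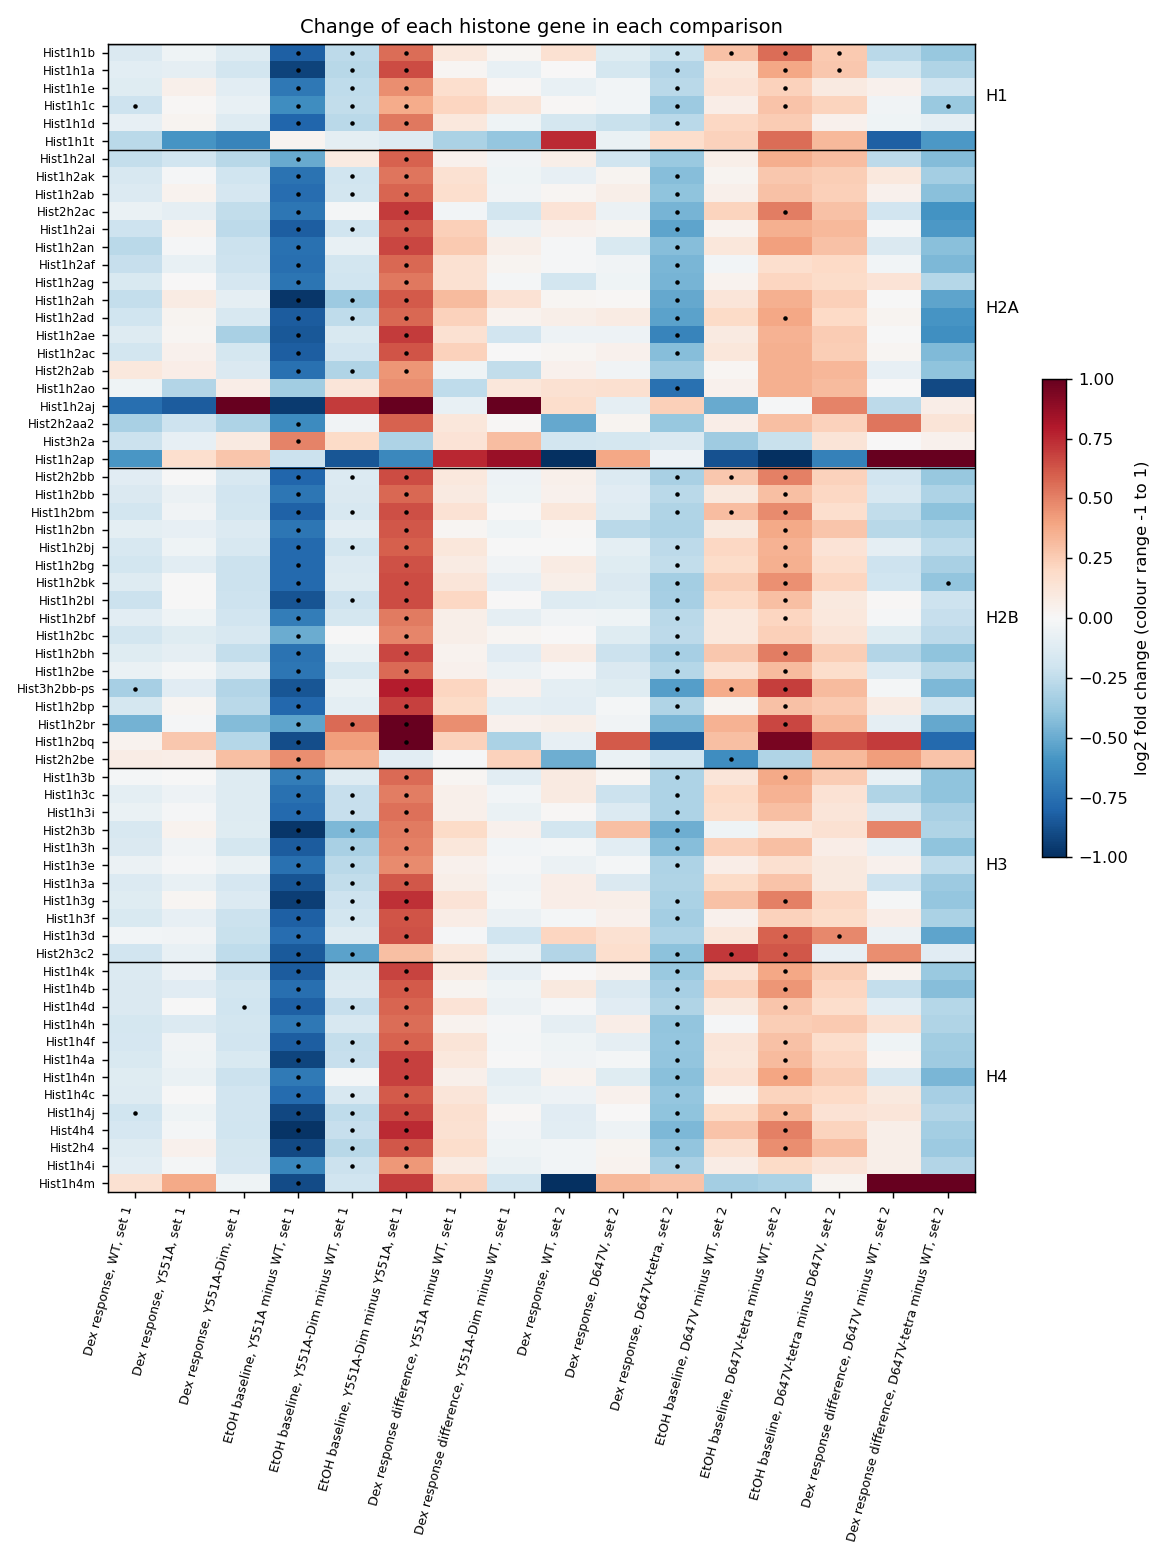
Log2 fold change of each of the 65 histone genes (rows, by class and mean level) in 16 comparisons (columns), coloured from -1 to 1 with larger values drawn at the ends of the scale. Black dots mark genes called at an adjusted p below 0.05: the column of the Y551A baseline carries 61 dots, that of Y551A-Dim against Y551A 56, that of the D647V-tetra baseline 33 and that of the D647V-tetra Dex response 51.

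In set 2, histone transcripts were lower after Dex than after EtOH in D647V-tetra. Of the 65 genes, 51 fell and 0 rose, where 7.89% and 11.3% of all genes tested did (edgeR's quasi-likelihood test, 58 members at an unadjusted p below 0.05, 55 calls by DESeq2). The median was -0.34, a fold of 0.79, against -0.001 for all genes tested, and 62 genes were below 0. In 56 members every Dex library lay below every EtOH library, and in 0 above, patterns of 17.2% and 19.1% of all genes. The genes that fell were 12 of 13 H4, 9 of 11 H3, 13 of 17 H2B, 12 of 18 H2A and 5 of 6 H1. Hist1h4d had 693.9, 663.8 and 703.1 CPM in EtOH and 571.1, 577.2 and 523.0 in Dex, a change of -0.30 ± 0.0752 (log2, SE, n = 3 per group, edgeR adjusted p = 0.0119). Hist1h1c had 440.7, 406.6 and 468.5 CPM in EtOH and 333.9, 356.8 and 334.8 in Dex (-0.36 ± 0.0649, edgeR adjusted p = 0.00125). Neither overlapped between treatments. Hist4h4 went from 419.8, 383.2 and 434.7 CPM to 320.1, 325.1 and 261.1 (-0.45 ± 0.1013), and Hist3h2bb-ps from 15.1, 15.5 and 14.5 to 10.5, 10.4 and 9.83 (-0.55). The lowest called changes were those of the H2A genes Hist1h2ao (-0.75 ± 0.2377) and Hist1h2ae (-0.66 ± 0.134), followed by Hist3h2bb-ps and the H2A gene Hist1h2ad (-0.53). Hist1h2ae had 61.2, 45.1 and 54.6 CPM in EtOH and 33.9, 32.7 and 35.3 in Dex. The count was 19 without replicate 3 of D647V-tetra in Dex, 28 without its replicate 1, and 29 or 32 without replicate 1 or 3 of its EtOH libraries.

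**Figure D4:**
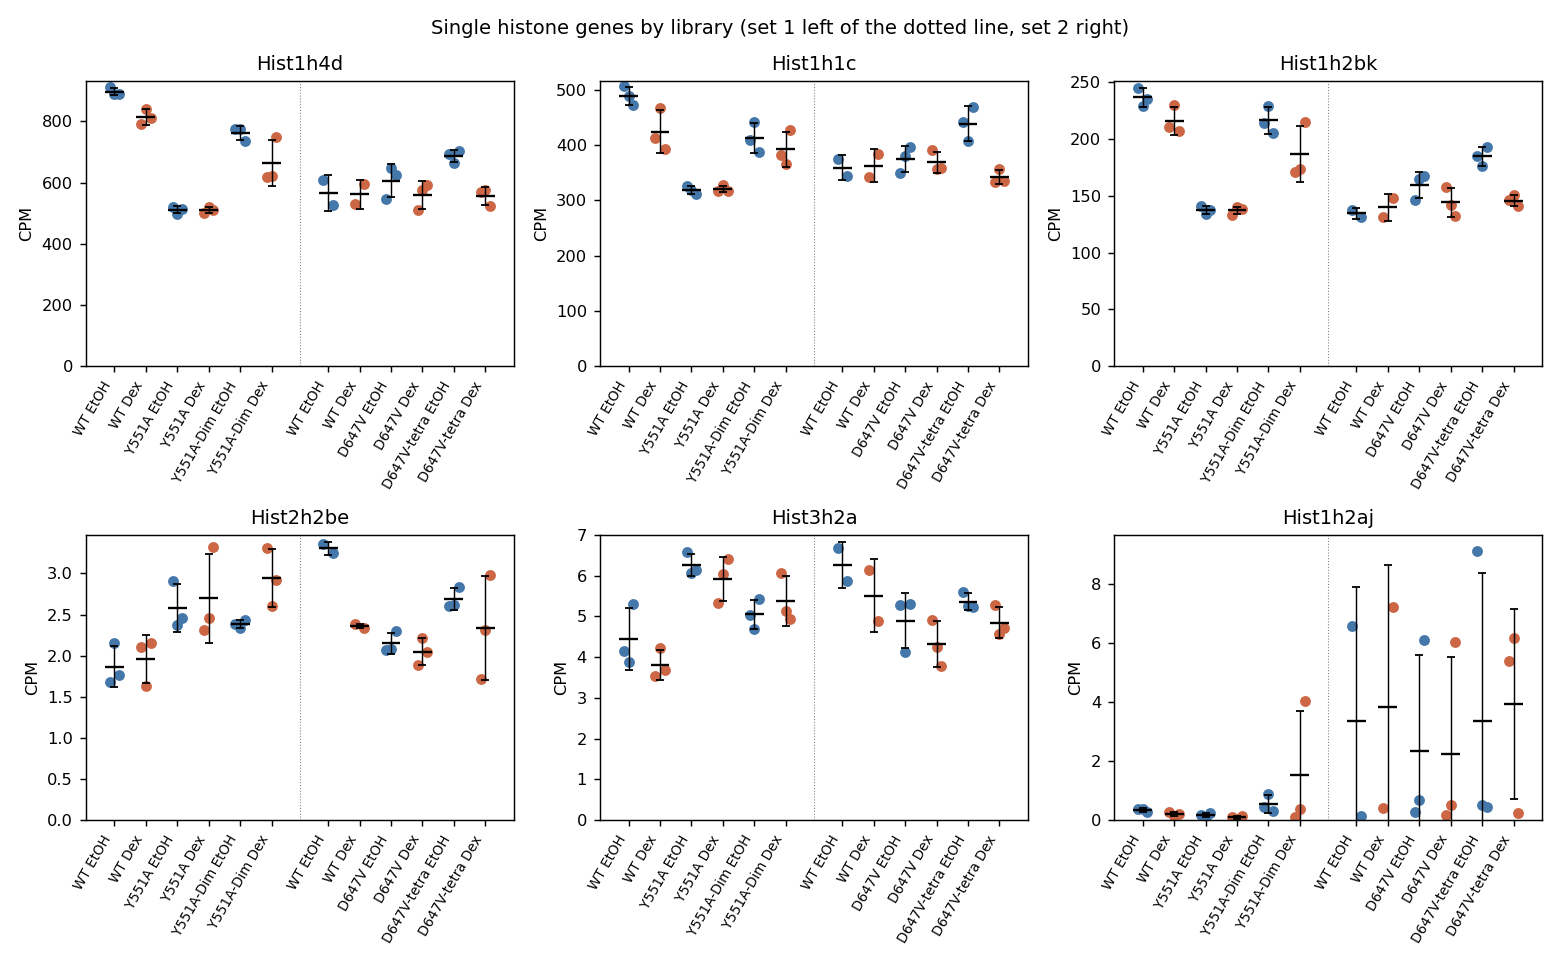
CPM (counts scaled to a common library size, axes from 0) of Hist1h4d, Hist1h1c, Hist1h2bk, Hist2h2be, Hist3h2a and Hist1h2aj in each library, by line and treatment. Points are libraries, lines are means and bars the SD (cut at 0 for Hist1h2aj): Hist1h4d is lowest in Y551A (498.0 to 519.7 CPM in EtOH), Hist2h2be and Hist3h2a run the other way in that line, and Hist1h2aj is spread within groups of set 2.

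Other groups moved with the histone genes in this comparison to different degrees. Of the 34 S phase genes 7 fell, with a median of -0.072, including Pcna (-0.15 ± 0.0442) and Slbp (-0.14 ± 0.0453, edgeR adjusted p = 0.0447). Slbp had 78.8, 73.0 and 76.7 CPM in EtOH and 67.7, 70.4 and 69.8 in Dex. Of 24 G2 and mitosis genes 4 fell and Mki67 rose (0.32 ± 0.063), with a median of -0.087. Of 10 replication-independent histone genes 6 fell, among them H2afx (-0.42 ± 0.1014), H2afz (-0.27 ± 0.057) and H1f0 (-0.21 ± 0.0507), with a median of -0.217. Of 22 structural non-coding RNAs 9 fell, with a median of -0.655, such as Rny1 (-1.17), Rn7s2 (-0.97) and Rmrp (-0.67). Rmrp, the RNA of RNase MRP, had 10058, 8087 and 9090 CPM in EtOH and 6181, 6943 and 4050 in Dex. By library, the median deviation of the histone genes from the mean of the set was 0.331, 0.131 and 0.245 (log2) in EtOH and -0.112, -0.045 and -0.179 in Dex, and that of the structural RNAs 0.735, 0.25 and 0.451 in EtOH and -0.012, 0.013 and -0.724 in Dex. The order of the libraries was the same for both lists in this line. Short non-member genes of 300 to 800 bp had a median of 0.011 (n = 1399). The part of the structural RNAs, of library preparation and of the cell cycle in the histone result was not tested.

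In the other lines of set 2 no member passed the test after Dex. WT had 0 of 65 calls by edgeR's quasi-likelihood test (1.35% of all genes tested were higher and 0.376% lower), a median of -0.005 (-0.127 to 0.097 when single libraries were left out), 3 members at an unadjusted p below 0.05 and 0 calls by DESeq2. D647V had 0 as well (0.804% and 0.137%), a median of -0.044 (-0.133 to 0.009 when single libraries were left out), 7 members at an unadjusted p below 0.05 and 0 calls by DESeq2, and 2 calls by edgeR without its replicate 1 in Dex. The direct test of D647V against WT gave 0 members (0.0057% of all genes tested were higher and 0.182% lower, median -0.023, 5 at an unadjusted p below 0.05, 0 by DESeq2). Between D647V-tetra and WT, the Dex responses differed in 2 members, both lower in D647V-tetra, where 0.713% of all genes tested were lower and 3.7% higher (edgeR's quasi-likelihood test, 40 members at an unadjusted p below 0.05, 10 by DESeq2, median -0.358). Hist1h2bk, an H2B gene, had 137.6 and 131.1 CPM in EtOH and 131.3 and 148.1 in Dex in WT, and 184.6, 176.2 and 192.4 in EtOH and 146.2, 150.2 and 140.4 in Dex in D647V-tetra. The WT treatments overlap and those of D647V-tetra do not. The difference between responses was -0.40 ± 0.1077 (log2, SE, edgeR adjusted p = 0.047). For Hist1h1c, which had 375.4 and 343.3 CPM in EtOH and 341.8 and 383.4 in Dex in WT, it was -0.37 ± 0.1026 (edgeR adjusted p = 0.0488). The count of 2 was 47 without the filter on low counts, 15 without replicate 1 of WT in Dex, 12 without replicate 1 of WT in EtOH or replicate 2 of D647V-tetra in EtOH, 8 without replicate 1 of D647V in EtOH and 7 without replicate 2 of D647V-tetra in Dex. It was 1 without replicate 3 of D647V in EtOH or in Dex or replicate 1 of D647V-tetra in EtOH. It was 0 without replicate 2 of WT in EtOH or in Dex, replicate 2 of D647V in EtOH, replicate 3 of D647V-tetra in EtOH, or replicate 1 or 3 of D647V-tetra in Dex. The EtOH libraries of D647V-tetra enter both its baseline comparison and its Dex response.

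The members followed each other closely across libraries. The median correlation (Pearson, log2 CPM) between pairs of members was 0.945 over the 18 libraries of set 1 and 0.695 over the 16 of set 2, where the points share library depth and group. In set 1 the members with a correlation below 0.5 to the rest were Hist2h2be, Hist3h2a, Hist1h2ap and Hist1h1t. In set 2 Hist2h3c2, Hist1h2aj, Hist1h2bq and Hist1h4m joined them. Outside the family, 15991 genes were compared with the log2 of the members' summed CPM over the 34 libraries, after each set's mean was subtracted. Those that followed this sum most closely were Spc24, a subunit of the kinetochore complex Ndc80 (0.972), and Nhp2, a protein of box H/ACA ribonucleoproteins (0.97). Next came the prolyl isomerase Ppil1 (0.968), the nucleotide pyrophosphatase Dctpp1 (0.964) and the DNA repair endonuclease Apex1 (0.964). Their correlations were 0.979 to 0.983 in set 1 alone and 0.887 to 0.928 in set 2 alone. These are descriptions over libraries that share groups and sets.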

How the data were processed

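The deposited values were raw counts per gene name. Per the file headers, featureCounts 2.0.3 was run by the authors over GENCODE vM21 exons, reverse-stranded (option 2), counting both mates and without reads that match several places. Per the submitters' processing notes, bcl2fastq 2.17, cutadapt, STAR and mm10 were used. All 16 column headers of set 2 carry the word "resent". Counts over mouse genes hold no Drosophila spike-in, so spike-in scaling was not used here.

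Counts were scaled with edgeR's TMM and filtered by edgeR's filterByExpr. Sets were fitted separately with a mean per group by edgeR's quasi-likelihood test, two-sided, with Benjamini-Hochberg adjustment over all genes and a call at an adjusted p below 0.05 (R 4.3.3, edgeR 4.0.16, limma 3.58.1, DESeq2 1.42.0). Set 1 had 16140 genes and 12 residual degrees of freedom, set 2 had 17535 and 10. The biological coefficient of variation was 5.13% and 8.62%. All 65 members passed the filter in both sets. The SE of a log2 fold change is its absolute value over the square root of F. CPM use the scaled library size. Log2 CPM use a prior count of 2.

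On simulated counts for the Y551A baseline (16140 genes), 46%, 60%, 74% and 84% of 50 genes each changed 1.25-, 1.5-, 2- and 3-fold were recovered. For the D647V-tetra Dex response (17535 genes) these were 34%, 60%, 72% and 74%. Unchanged genes that were called numbered 6 in the simulated Y551A baseline and 12 in the simulated D647V-tetra Dex response.

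Members and lists were chosen with earlier results of these data known. Named members were the 3 highest of each class per length, all H1, Hist2h, Hist3h and Hist4h members, and up to 4 highest and 4 lowest called members per comparison. Named list genes were up to 3 with the lowest adjusted p, plus Slbp, Npat, Casp8ap2, Pcna, Ccne1, Ccne2 and Mki67. Hist1h2ae, Hist1h2aj, Hist1h2ap and other genes that illustrate a pair, a list or a value outside that rule were chosen after their values were seen. Alternatives tried were another scaling, DESeq2, no low-count filter, a replicate block, a length offset with and without that block, and each library left out in turn.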

Additional observations from a re-analysis of the deposited data

Results flagged for a closer look

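The Dex responses of D647V-tetra and WT in set 2 differed for 2 histone genes by edgeR's test of the difference itself. For the H2B gene Hist1h2bk the difference, D647V-tetra minus WT, was -0.396 ± 0.1077 (log2, SE, edgeR adjusted p = 0.047), and for the linker histone gene Hist1h1c it was -0.373 ± 0.1026 (edgeR adjusted p = 0.0488). Both genes were lower after Dex in all 3 D647V-tetra libraries, and in WT the 2 Dex libraries overlapped the 2 EtOH libraries. Both adjusted p-values are close to the threshold, and the count of members with such a difference was 0 to 15 when single libraries were left out. With a replicate block or a length offset 0 members were called, and with scaling by relative log expression 1 was.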

How the results depend on the processing

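Counts of called members that moved by more than 1.5 times are given here, and the cause was not tested. Without the low-count filter they were 32 for the Dex response of WT in set 1, 1 for Y551A, 38 for Y551A-Dim, 1 for WT in set 2, 6 for D647V, 15 and 55 for the baselines of D647V and D647V-tetra, 39 for D647V-tetra against D647V, and 1 and 1 (set 1) and 2 and 47 (set 2, D647V and D647V-tetra) for the differences of Dex response from WT. DESeq2 gave 5 and 14 for the Dex responses of WT in set 1 and Y551A-Dim, 11 for D647V-tetra against D647V and 10 for the difference of D647V-tetra from WT, where scaling by size factors gave 1. A length offset gave 1 for the Dex response of WT in set 1, 0 for Y551A-Dim, 1 for the D647V baseline, 0 for D647V-tetra against D647V and 0 for the difference of D647V-tetra from WT. Its medians were -0.302 for the Y551A-Dim baseline, -0.187 for the difference of D647V from WT and -0.533 for that of D647V-tetra.

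Same-numbered Dex and EtOH libraries of a line did not deviate together from their group means, with correlations of -0.201 to 0.082. For WT of set 2, with 2 libraries per group, same-numbered and other-numbered correlations are opposites by construction (-0.194 and 0.194). The check does not settle whether samples were paired. With a replicate block the count was 0 for the Dex response of Y551A-Dim, 2 for the D647V baseline, 0 for D647V-tetra against D647V, 0 for the difference of D647V-tetra from WT and 39 for the Dex response of D647V-tetra. With the WT Dex numbers of set 2 exchanged, a fit chosen after seeing the data, the D647V baseline had 2, the difference of D647V-tetra from WT 0, the Dex response of D647V-tetra 46 and its baseline 28. A length offset with the replicate block gave 1 for the Dex response of WT in set 1, 0 for Y551A-Dim, 30 for D647V-tetra, 1 and 18 for the baselines of D647V and D647V-tetra, 0 for D647V-tetra against D647V and 0 for the difference of D647V-tetra from WT, with medians of -0.302 (Y551A-Dim baseline), -0.196 and -0.534 (differences of D647V and D647V-tetra).

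Leaving out each library in turn gave 0 to 18 calls for the Dex response of WT in set 1, 0 to 49 for Y551A-Dim, 0 to 2 for D647V and 19 to 53 for D647V-tetra, 58 to 61 for the Y551A baseline, 19 to 41 for Y551A-Dim, 0 to 7 for D647V, 6 to 40 for D647V-tetra, 0 to 5 for D647V-tetra against D647V, and 0 to 1 (Y551A-Dim) and 0 to 15 (D647V-tetra) for the differences from WT. Medians ran from -0.784 to -0.723 for the Y551A baseline, 0.248 to 0.448 for that of D647V-tetra, -0.386 to -0.315 for its Dex response and -0.284 to -0.131 for that of Y551A-Dim. Medians of the differences ran from -0.14 to 0.027 (Y551A-Dim), -0.167 to 0.099 (D647V) and -0.473 to -0.233 (D647V-tetra). No result changed direction past the spread between libraries. With 2 WT libraries per treatment in set 2, the precision there is limited, and members that share sequence rest on the fewer reads that match a single place.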

Other observations

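Hist1h2aj, an H2A pseudogene on chromosome 13 (21721457 to 21721808) with 91.7% of its windows shared with other genes, had levels that did not follow the groups. In set 2 it stood at 6.58 and 0.154 CPM in WT in EtOH, 0.42 and 7.24 in WT in Dex, 0.278, 0.673 and 6.1 in D647V in EtOH, 0.17, 0.521 and 6.04 in D647V in Dex, 9.14, 0.53 and 0.432 in D647V-tetra in EtOH, and 5.4, 6.18 and 0.254 in D647V-tetra in Dex. In set 1 replicate 3 of Y551A-Dim in Dex stood at 4.04 CPM and the other libraries at 0.888 or below. Its head-to-head partner Hist1h2bm showed no such split, with 154.6 and 148.9 CPM in WT in EtOH of set 2 and 194.7, 206.8 and 231.3 in D647V-tetra.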
